A study of Mus musculus with 2 samples.

Results

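The 31 genes described here act in cholesterol synthesis, in the sensing of sterols and in the movement, esterification and export of cholesterol. They were taken by name from the 34745 genes that the authors listed, and all 31 were found. In the order of their roles, 6 encode enzymes of the mevalonate steps, 11 enzymes of the sterol steps, 4 regulators, and 10 proteins of transport and esterification. Their levels were compared between a library of miR-182-5p KO liver and a library of wild-type (WT) liver, both from male mice of 8 to 10 weeks at day 3 after 2/3 partial hepatectomy (PH), an operation that removed 70% of the liver. The KO mice are heterozygous for a knockout that the study does not restrict to a tissue, and no unoperated liver was analysed here, so both groups share the operation. Each genotype had 1 library of poly(A) RNA, and how many mice went into each is not given in the sources used here. The deleted gene itself, *Mir182*, is not among the listed genes, so its level could not serve as a check of the genotypes. The mature miRNA, given by RefSeq (GRCm38.p6) at chr6:30165962-30165986 on the minus strand, is shown with its seed, bases 2 to 8, in capitals because it is what the genotypes differ in.
mmu-miR-182-5p: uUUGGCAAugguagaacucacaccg

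Liver cells make cholesterol from acetyl-CoA. The mevalonate steps build the isoprenoid farnesyl diphosphate, 2 molecules of which are joined to squalene, and the sterol steps turn squalene into cholesterol. The genes of these enzymes are known targets of the transcription factor SREBP-2, which SCAP carries out of the endoplasmic reticulum when sterols are scarce and which INSIG proteins hold back when sterols are abundant. Cholesterol leaves hepatocytes as bile acids, as free sterol pumped into bile, or in lipoproteins, and it is the substrate from which the bile acids studied in this series are made.

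SREBP-2 binds sterol regulatory elements close to gene starts. Of the 31 members, 24 were matched by symbol to RefSeq promoters, which reach from 250 bases before to 50 bases after a start and gave 31 windows, since some genes have several starts. No promoter was matched, and so none was searched, for *Fdps*, *Fdft1*, *Sqle*, *Stard4*, *Npc1*, *Soat2* and *Scarb1*. The letters TCACNCCAC, a form of the sterol regulatory element, were sought on both strands. They were found in 1 of the 31 member windows (3.23%), that of *Hmgcs1*, and in 1.24% of all 32851 promoter windows. Other forms of the element were not sought, so a window without a match may still hold one. The match in *Hmgcs1* begins 137 bases before the start. *Hmgcs1* is also the member with the most counts and the highest log2 ratio, and a link between the match and these values was not tested. The match is printed with the element in capitals, from chr13:119690204-119690233 of GRCm38.p6 on the plus strand.
Hmgcs1: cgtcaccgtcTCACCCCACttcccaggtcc

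CCAAT, the letters of the NF-Y site, were held on either strand by 22 of the 31 member windows (71.0%) and by 37.4% of all windows. GGGCGG, the GC box, was held by 23 member windows (74.2%) and by 35.7% of all windows. The window of *Abcg5* and a window of *Abcg8* share the bases 84682962 to 84683170 of chromosome 17, so a match there counts in both. None of the 3 motifs contains another, and a match is given as a description of the window only.

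Total counts were 13247497 for KO and 13163348 for WT. Transcripts of the 13 mitochondrial protein-coding genes made up 51.7% of the KO reads and 31% of the WT reads, which leaves fewer KO reads for all other genes. Every one of the 31 members had fewer counts in KO liver than in WT liver. For 12 of them the direction depends on how the libraries are scaled, while the other 19 were lower in KO with every scaling tried. With the TMM method of edgeR, which balances the libraries on the bulk of genes, the median log2 ratio of KO over WT over all genes was 0.00, and with total counts it was −0.60. Under TMM 19 of the 31 members were below 0, as were 6778 of the 13561 genes whose 2 counts summed to at least 10. A change of scaling moves all genes by nearly the same amount, so a direction kept under every scaling is no separate check. All log2 ratios below use TMM and a prior count of 0.5, unless stated otherwise, and can be read as the place of a gene relative to the bulk of genes. With 1 library per genotype no ratio has a replicate check. The 95% intervals in parentheses are exact Clopper-Pearson intervals of the reads, cover counting error only, and compare these libraries and not the genotypes.

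Hepatocyte markers were abundant in both libraries. The 6 listed markers (*Alb*, *Ttr*, *Apoa1*, *Tat*, *Cps1* and *Serpina1c*) summed to a scaled CPM, a count relative to the TMM-scaled library total, of 51794 for KO and 51005 for WT, with a median log2 ratio of 0.08. *Alb* alone gave 61.0% of this sum in KO and 64.9% in WT, and the single markers went both ways, 3 above 0 and 3 below, with *Cps1* at −0.63 and *Tat* at −0.25. All 8 markers of Kupffer cells and macrophages had a log2 ratio below 0, with a median of −0.30 and a summed scaled CPM of 135 for KO against 179 for WT. The 8 markers of stellate cells had a median of −0.64, with 7 below 0 and a sum of 89.7 against 133. The 6 markers of endothelial cells had a median of −0.49 and a sum of 62.9 against 79.7, and the 3 measured ones of neutrophils a median of 0.15 and a sum of 33.1 against 30.5, with *Ly6g* at 0 counts in both. The 5 markers of cholangiocytes had a median of 0.40 with TMM and −0.20 with total counts, and a sum of 164 against 125, of which *Spp1* made up 93.1% in KO and 92.3% in WT. *Sox9* stood at −0.31, while *Krt7* (15 and 6 counts) and *Krt19* (26 and 7 counts) stood at 1.81 and 2.39. In bulk liver, fewer cells of a type and less RNA per cell cannot be told apart, and the part of these cells in the results below was not tested.

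With TMM no member reached a 2-fold difference between the libraries in either direction. With total counts 5 did, and with the authors' FPKM plus a pseudocount of 0.1 there were 4, all lower in KO. With total counts 26.6% of all genes were 2-fold lower, and the share with FPKM is not given here. Among the 13561 genes whose 2 counts summed to at least 10, 19.4% were past 2-fold with TMM, 9.46% higher and 9.94% lower in KO. Members are abundant, and the share is smaller among abundant genes, at 12.7% of genes with at least 50 counts and 9.22% of genes with at least 200 counts, a limit that all members but *Soat1* meet. At 1.5-fold, 2 members were past the limit, *Insig2* and *Pmvk*, both lower in KO, while 38% of all genes were past it, 18.7% higher and 19.4% lower. The counting interval lay wholly above 0 for 9 members, wholly below for 14 and held 0 for 8, against 25.8%, 26.2% and 48% of all genes. Intervals narrow as counts rise and the members are abundant, so these shares are not matched to the members' counts. With total counts the interval lay wholly below 0 for 30 of the 31 members. The same share over all genes was not computed. Their median was −0.60 with that scaling, so this count is not read as a result about the members. The median size of the log2 ratio, without regard to its sign, was 0.27 over the members, 0.44 over all genes and 0.34 over genes with at least 200 counts. The median of the members' percentiles of counts among all genes tested was 90.5. Genes with at least 200 counts are therefore not matched to the members' counts either. The plot of the members below the histogram of all genes shows the range of the members.

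**Figure D1:**
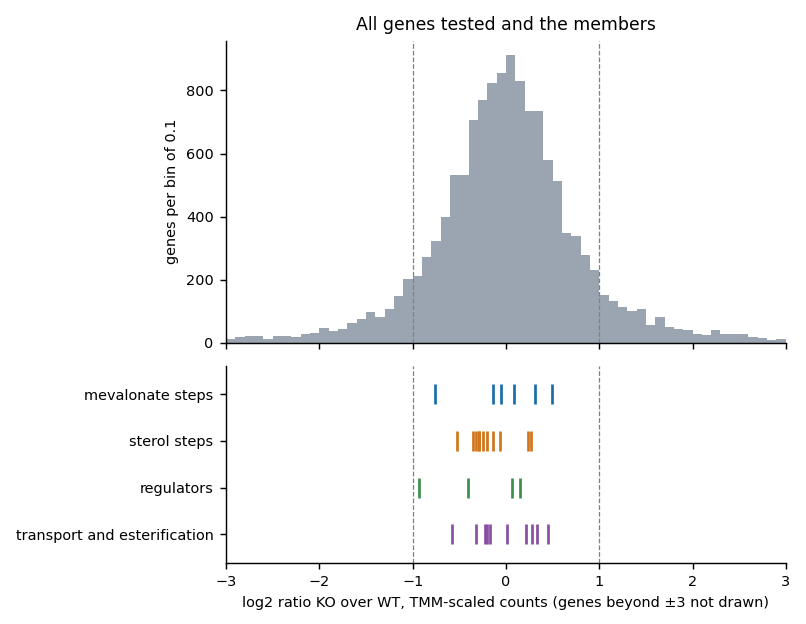
The upper panel counts the genes tested in bins of 0.1 of the log2 ratio of KO over WT (TMM-scaled counts), and the lower panel marks each member by role group. All 31 marks lie between the dashed lines at a 2-fold difference, from −0.93 for Insig2 to 0.49 for Hmgcs1.

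The order of the members by level was similar in both libraries. Levels of different genes were compared as scaled CPM per kilobase of the gene's merged exons. On this scale *Lcat* (111), *Hmgcs1* (108), *Ebp* (99.7) and *Sc5d* (87.7) were the highest in WT liver, and *Hmgcs1* (152), *Lcat* (140), *Sc5d* (71.7) and *Ebp* (69.3) in KO liver. *Insig1* was the fifth in both, at 35.7 in WT liver and 37.4 in KO liver. *Soat1* was the lowest in both, at 0.28 and 0.24, and the next lowest was *Lss*, at 1.93 and 1.55. Spearman's rho between the libraries across the 31 genes was 0.97, a description across genes that share each library. *Insig2* moved from place 12 in WT liver to 16 in KO liver and *Stard4* from place 27 to 22, the widest moves in either direction.

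**Figure D2:**
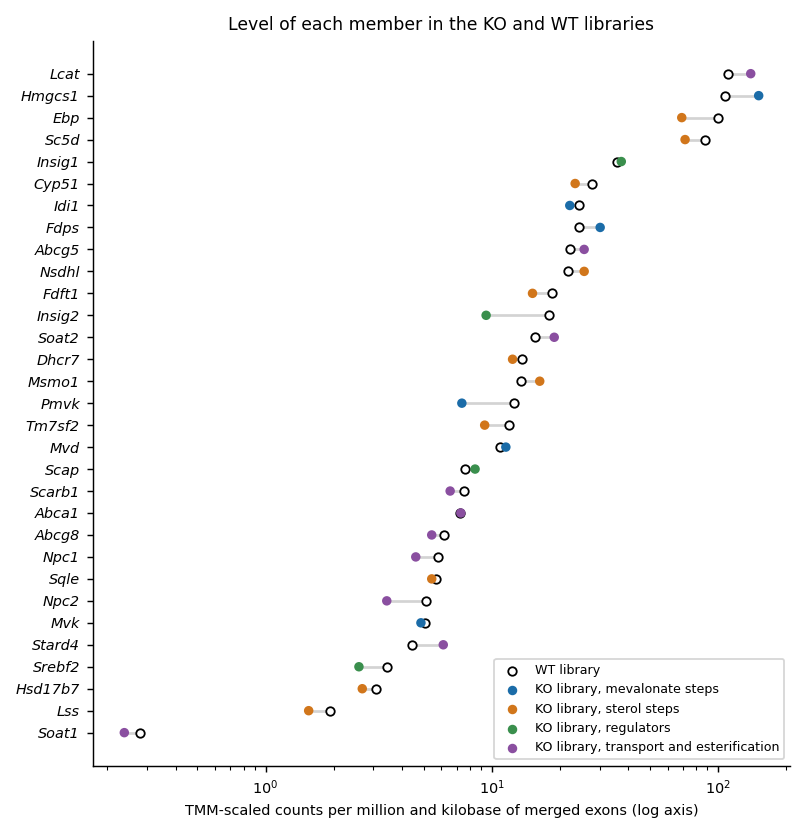
Each line is 1 member, ordered by its WT level, and the axis is logarithmic in TMM-scaled CPM per kilobase of merged exons. Open circles are the WT library and filled circles the KO library, coloured by role group, and the longest gap is that of Insig2, at 18 for WT and 9.45 for KO.

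The 6 genes of the mevalonate steps divided evenly around 0, with 3 above and 3 below and a median log2 ratio of 0.01, while with total counts all 6 were below 0. *Hmgcs1*, which encodes the cytosolic HMG-CoA synthase that opens the pathway, lies at 119690462 to 119708086 of chromosome 13, plus strand, in the authors' table. It had 7491 counts in KO liver and 8021 in WT liver, a log2 ratio of 0.49 (0.45 to 0.54), the highest of all members. *Fdps*, the farnesyl diphosphate synthase that ends these steps, had 1366 and 1663 counts and a log2 ratio of 0.31 (0.20 to 0.41). Both genes lay above 0 by more than counting error with TMM, and below 0 with total counts, at −0.11 and −0.29.

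*Pmvk*, the phosphomevalonate kinase in the middle of the route (chromosome 3, 89454541 to 89469013, plus strand), stood apart from the other mevalonate genes. It had 136 counts in KO liver and 348 in WT liver, a log2 ratio of −0.76 (−1.06 to −0.47). *Idi1*, which isomerises isopentenyl diphosphate, had 835 and 1389 counts and a log2 ratio of −0.14 (−0.27 to −0.02). The kinase *Mvk*, with 140 and 219 counts (−0.05), and the decarboxylase *Mvd*, with 231 and 329 counts (0.08), had intervals that hold 0. The order of the enzymes in the pathway was thus not the order of their ratios, since *Pmvk* lies between *Mvk* and *Mvd*.

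Ratios between genes of the same library do not depend on the scaling. *Hmgcs1* had 2.03 reads for each read of the other 5 mevalonate genes together in WT liver and 2.77 in KO liver, 1.36 times as many (95% exact conditional interval 1.28 to 1.44). Against *Pmvk* alone the KO ratio was 2.39 times the WT ratio (1.95 to 2.94). *Hmgcs1* and *Pmvk* have the highest and the lowest log2 ratio of the 6 mevalonate genes. A higher KO ratio in both comparisons therefore follows from the choice of genes, which the intervals do not allow for. Of the reads on all 17 synthesis enzymes, *Hmgcs1* took 35.3% in KO liver (34.7% to 36%) and 25.5% in WT liver (25% to 26%). Summed over the 17 enzymes, there were 21201 KO and 31466 WT reads, and this ratio does depend on the scaling, at a log2 of 0.02 with TMM, with an interval that holds 0, and −0.58 with total counts. The same sum over the 6 mevalonate genes gave 0.36 with TMM and −0.24 with total counts, and without *Hmgcs1* it gave 0.05 and −0.55. Over the 11 sterol genes it gave −0.23 and −0.83.

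Of the 11 genes of the sterol steps, 9 had a log2 ratio below 0 and 2 above, with a median of −0.24, while with total counts all 11 were below 0. Against the interval of each gene, 7 lay wholly below 0, 2 wholly above, and 2 held 0. The shares over all genes were the 26.2% below and 25.8% above given for the whole set, which are not matched to the counts of these genes. *Fdft1*, the squalene synthase at the entrance to these steps, had 689 counts in KO liver and 1268 in WT liver (−0.29, −0.42 to −0.15). *Sqle*, the squalene epoxidase known as a rate-limiting enzyme, had 324 and 512 counts and held 0 (−0.07, −0.27 to 0.14). *Lss*, which closes the sterol rings to lanosterol, had 180 and 338 counts (−0.32), and *Cyp51*, the lanosterol demethylase, 1111 and 1980 (−0.24). None of these 4 first enzymes was above 0 under TMM or total counts.

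*Ebp*, the sterol isomerase late in the pathway, was the lowest of the sterol steps. It lies at 8185329 to 8193512 of the X chromosome, minus strand, and had 1721 counts in KO liver and 3735 in WT liver, a log2 ratio of −0.53 (−0.61 to −0.44). *Sc5d*, the desaturase that follows it, had 3750 and 6920 counts (−0.29, −0.35 to −0.23), and *Dhcr7*, the reductase whose product is cholesterol, 774 and 1283 (−0.14, −0.27 to −0.01). *Tm7sf2*, a sterol reductase, had 441 and 852 counts (−0.36), and *Hsd17b7*, a keto reductase, 147 and 256 (−0.21), with an interval that holds 0. Of the reads on the 17 enzymes, *Ebp* took 8.12% in KO liver (7.75% to 8.49%) and 11.9% in WT liver (11.5% to 12.2%).

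The 2 genes of the sterol steps above 0 act in succession. *Msmo1*, the oxidase that starts the removal of the methyl groups at carbon 4 of the sterol, had 1078 counts in KO liver and 1345 in WT liver, a log2 ratio of 0.27 (0.16 to 0.39). *Nsdhl*, the decarboxylase that acts next, had 787 and 1008 counts (0.24, 0.10 to 0.37). With total counts they stood at −0.33 and −0.37, still above the median of all genes. *Hsd17b7*, the third enzyme of the same removal, lay below 0 with TMM.

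**Figure D3:**
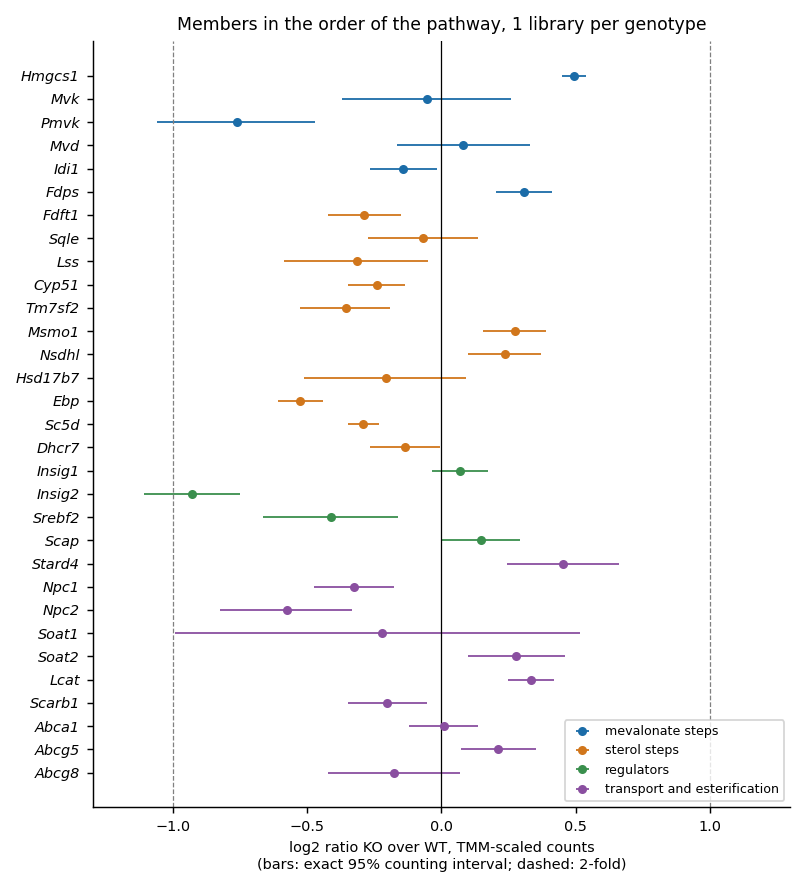
Each point is the log2 ratio of KO over WT of 1 member from TMM-scaled counts, in the order of the pathway, with its exact 95% counting interval and dashed lines at a 2-fold difference. Hmgcs1 is the farthest to the right, at 0.49, and Insig2 (−0.93) and Pmvk (−0.76) are the farthest to the left.

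Among the 4 regulators the 2 INSIG genes stood apart from each other. *Insig1*, itself a known target of SREBP-2, lies at 28071363 to 28078662 of chromosome 5, plus strand. It had 1245 counts in KO liver and 1790 in WT liver, a log2 ratio of 0.07 with an interval that holds 0 (−0.04 to 0.17). *Insig2*, whose protein has the same role but whose liver transcript is known to answer to insulin and to the circadian clock, lies at 121304353 to 121332589 of chromosome 1, minus strand. It had 353 and 1013 counts and a log2 ratio of −0.93 (−1.11 to −0.75), the lowest of all members. *Insig1* had 1.77 reads for each read of *Insig2* in WT liver and 3.53 in KO liver, 2.00 times as many (1.73 to 2.31), a value that is the same under every scaling.

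The gene of SREBP-2, *Srebf2*, had 200 counts in KO liver and 401 in WT liver, a log2 ratio of −0.41 (−0.66 to −0.16). Its escort *Scap* had 676 and 921 counts and lay just above 0 (0.15, 0.00 to 0.29). The reads of *Srebf2* for each read of *Scap* were 0.296 in KO liver and 0.435 in WT liver, 0.680 times as many (0.555 to 0.831). The median of the 4 regulators was −0.17, and with total counts *Insig2* (−1.53) and *Srebf2* (−1.01) were past a 2-fold difference.

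REV-ERBα, the clock repressor encoded by *Nr1d1*, is known to lower *Insig2* in mouse liver. *Nr1d1* had 534 counts in KO liver and 129 in WT liver, a log2 ratio of 2.64 (2.36 to 2.93). The clock output list held 10 genes, of which *Bhlhe41*, with 8 and 1 counts, fell short of the filter on low counts. The other 9 were all above 0 with TMM, and 6 were past 2-fold, *Dbp* (3.48), *Nr1d1*, *Per3* (2.16), *Ciart* (1.64), *Nr1d2* (1.25) and *Per2* (1.25). With total counts 8 of the 9 were above 0, *Hlf* was at −0.33, and 4 were past 2-fold, since *Nr1d2* (0.65) and *Per2* (0.65) no longer were. Over all genes 9.46% were past 2-fold higher with TMM and 4.60% with total counts. Per the study's methods the operations were done in the early morning, and the hour at which each liver was taken is not given in the sources used here. The part of the clock genes in the ratio of *Insig2* was not tested.

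The 10 genes of transport and esterification were evenly divided, with 5 above 0, 5 below and a median of −0.08, while with total counts all 10 were below 0. *Stard4*, a cytosolic sterol carrier and known SREBP-2 target, was the highest, with 367 counts in KO liver and 404 in WT liver (0.45, 0.25 to 0.66). The proteins that pass cholesterol out of lysosomes were both below 0. *Npc1*, in the lysosomal membrane, had 562 and 1062 counts (−0.33, −0.48 to −0.18), and *Npc2*, its soluble partner (chromosome 12, 84754560 to 84773112, minus strand), 201 and 452 (−0.58, −0.82 to −0.33). Their reads relative to each other, 2.80 of *Npc1* for each of *Npc2* in KO liver and 2.35 in WT liver, differed within counting error (1.19 times, 0.975 to 1.45).

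Among the acyltransferases *Soat2*, the form typical of hepatocytes, had 450 counts in KO liver and 559 in WT liver (0.28, 0.10 to 0.46). *Soat1*, the form typical of macrophages, had 25 and 44 counts, and its interval (−0.99 to 0.52) was the widest of all members. At this depth the interval holds 0 and reaches down to a decrease of nearly 2-fold. *Lcat*, which esterifies cholesterol on HDL in plasma, had 2018 and 2417 counts (0.33, 0.25 to 0.42). *Scarb1*, the HDL receptor, had 599 and 1039 counts (−0.20, −0.35 to −0.06).

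The exporters were close to the bulk of genes. *Abca1*, which loads cholesterol onto apolipoprotein A-I and is a known target of the oxysterol receptor LXR, had 814 counts in KO liver and 1220 in WT liver, a log2 ratio of 0.01 (−0.12 to 0.14). *Abcg5* had 748 and 974 counts (0.21, 0.07 to 0.35) and *Abcg8* 219 and 373 (−0.18, −0.42 to 0.07), although their proteins form a single pump into bile. *Abcg5* had 3.42 reads for each read of *Abcg8* in KO liver and 2.61 in WT liver, 1.31 times as many (1.07 to 1.59). The genes lie head to head on opposite strands of chromosome 17, and their spans in the authors' table overlap from 84676302 to 84683011. Whether reads were counted by strand is not given in the sources used here, and without it reads from the overlap cannot be told apart.

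Other genes of the pathway were read from 5 further lists. Of their 42 genes, 41 were found and 40 had at least 10 counts, with a median log2 ratio of −0.20, 13 above 0 and 27 below. In each direction 1 was past 2-fold, against 9.46% of all genes higher and 9.94% lower. With total counts the median was −0.80, 39 of the 40 were below 0, and 13 were past 2-fold lower and 0 higher. Over all genes 26.6% were past 2-fold lower with total counts and 4.60% higher. *Ggps1*, which makes geranylgeranyl diphosphate on the isoprenoid branch, had 73 counts in KO liver and 45 in WT liver (1.28, 0.73 to 1.86). *Mylip*, an LXR target whose protein marks lipoprotein receptors for degradation, had 7 and 30 counts (−1.46, −2.94 to −0.29). With total counts *Mylip* stood at −2.03, and *Ggps1* at 0.68 was no longer past 2-fold.

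The list of electron donors and side enzymes stood lowest of the 5. All 7 of its measured genes had intervals wholly below 0, against 26.2% of all genes, a share not matched to their counts. Their median was −0.63. Past 1.5-fold lower were 4, *Acat2*, *Lbr*, *Tmem97* and *Por*, against 19.4% of all genes. *Acat2*, the cytosolic thiolase that supplies acetoacetyl-CoA to HMG-CoA synthase, had 205 counts in KO liver and 575 in WT liver (−0.89, −1.13 to −0.66). *Por*, which passes electrons to squalene epoxidase and to CYP51, had 1200 and 2803 (−0.63, −0.73 to −0.53). Of the other lists, 8 genes of SREBP processing had a median of −0.26, 5 of oxysterol sensing 0.24, 8 of the isoprenoid branch −0.20, and the 12 measured ones of sterol movement and hydrolysis 0.13, with *Npc1l1* at 0 counts in both libraries.

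Genes of fatty acid synthesis, which the related factor SREBP-1 controls, had a lower median than the sterol genes. All 8 genes of that list were below 0, with a median of −0.69 and 2 past 2-fold, against a median of −0.14 over the 17 enzymes of cholesterol synthesis and 0 past 2-fold. With total counts 6 of the 8 (median −1.29) and 2 of the 17 (median −0.74) were past 2-fold lower. The shares of all genes past 2-fold lower were 9.94% with TMM and 26.6% with total counts. *Scd1*, the stearoyl-CoA desaturase, had 8833 counts in KO liver and 35900 in WT liver (−1.43, −1.46 to −1.40), and *Elovl6*, a fatty acid elongase, 347 and 1176 (−1.17, −1.35 to −0.99). The gene of SREBP-1 itself, *Srebf1*, had 708 and 1171 counts and held 0 (−0.13, −0.27 to 0.00). With 1 library per genotype the difference between the lists was not tested.

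**Figure D4:**
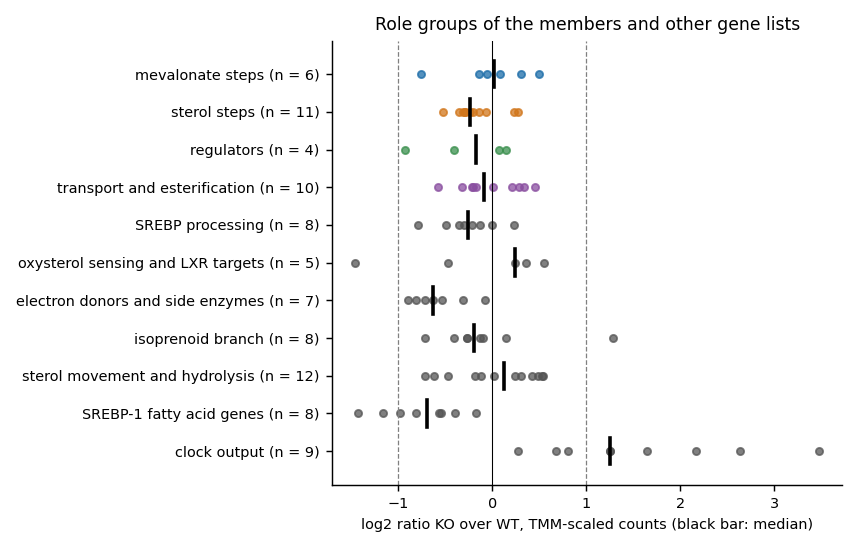
Each point is the log2 ratio of KO over WT of 1 gene with at least 10 counts (TMM-scaled), with a black bar at the median of each role group of the members (coloured) and of each further list (grey). The role groups have medians between −0.24 and 0.01, the SREBP-1 fatty acid genes −0.69 and the clock output genes 1.25.

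By construction, a change of scaling moves all genes by nearly the same amount. With total counts all 31 members were below 0, from −1.53 for *Insig2* to −0.11 for *Hmgcs1*, and 5 were past a 2-fold decrease, *Insig2*, *Pmvk* (−1.36), *Npc2* (−1.18), *Ebp* (−1.13) and *Srebf2* (−1.01), while 26.6% of all genes were. Relative to the median of all genes, the median of the members was −0.14 with TMM and −0.14 with total counts, which follows from that construction and is no separate check. Which scaling describes the amount of transcript per cell was not tested.

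**Figure D5:**
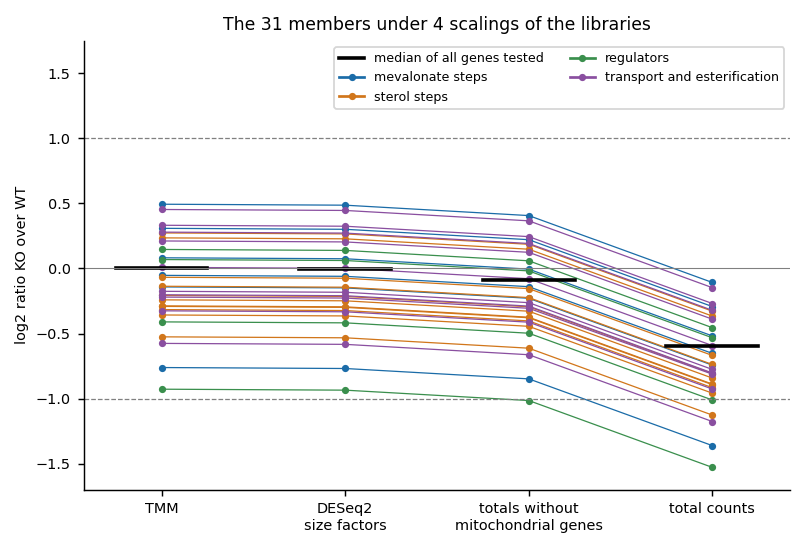
Each line is 1 member and shows its log2 ratio of KO over WT under 4 scalings of the libraries, with black bars at the median of all genes with at least 10 counts. The lines run nearly parallel and follow the black bars, from 0.00 with TMM to −0.60 with total counts, because scaling shifts every gene by nearly the same amount.

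Reads of a few members could belong to similar genes. Of the 51-base words in the longest transcript of each member, over 10% also occur in another gene for *Idi1* (21.3%), *Fdps* (11.6%) and *Fdft1* (10.6%), and none for 19 members. *Fdps* also overlaps *Gm43738* on its own strand, which had 56 counts in KO liver and 83 in WT liver, and the end of *Fdft1* overlaps *Ctsb* on the opposite strand, which had 3659 and 7397. *Tm7sf2* overlaps *Vps51* on its own strand, which had 77 and 101. On the opposite strand *Cyp51* overlaps *Akap9*, with 261 and 283 counts, *Npc1* overlaps *3110002H16Rik*, with 212 and 180, and *Gm15956*, with 10 and 0, and *Insig2* overlaps *Gm37174*, with 3 and 0. How shared reads were assigned is not given in the sources used here, so the values of these members, and of *Abcg5* and *Abcg8*, are uncertain to that extent.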

How the data were processed

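Poly(A) RNA of liver was sequenced on Illumina HiSeq instruments, 1 library per genotype. The authors deposited raw counts of reads for every gene and FPKM, which scale each count by a gene length and by the total count of the library. Per the labels, HISAT2 2.0.4, StringTie and edgeR were used, without their roles. The labels name the human build hg38, whereas the identifiers are mouse Ensembl genes, of which 34267 are in GENCODE M21 (GRCm38), 80.8% of them at identical coordinates. Counting program and strand setting are not given in the sources used here.

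The deposited counts were scaled with TMM (edgeR 4.0.16, R 4.3.3) on genes whose counts summed to at least 10, and log2 ratios were taken with a prior count of 0.5. The KO share of a gene's 2 counts gave its exact 95% interval (scipy 1.17.1). A gene was called past a 2-fold difference on its ratio alone, and no p-value was computed, since 1 library per genotype allows no test. Ratios of ratios have exact conditional intervals. Merged exons of GENCODE M21 gave the lengths. These steps were tested on simulated counts drawn from a profile shared by both libraries. That profile lacks their difference in mitochondrial reads, so the test does not bear on the choice of scaling. Intervals cover counting error only, since reads without molecular identifiers are not independent molecules.

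Members and lists were chosen with earlier results of these data known. All members are accounted for. By rule, full values were due for members past 2-fold and for the first and last enzymes of each route, and genes of the further lists were named when past 2-fold. Other genes named from those lists were chosen after their values were seen. *Faxdc2*, of the list of side enzymes, was not found by name. Other scalings (DESeq2 1.42.0 among them), filters, prior counts and folds were tried as alternatives.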

Additional observations from a re-analysis of the deposited data

How the results depend on the processing

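No paired analysis was possible because only 1 library was made per genotype, and for the same reason no library was left out. No member was past 2-fold with TMM, under a minimum of 1, 50 or 200 counts (the last added after seeing the data), with a prior count of 5, with upper-quartile scaling or DESeq2's size factors, or with an interval required on 1 side of 0. With total counts 5 members were past a 2-fold decrease, 1 each of the mevalonate steps, the sterol steps and the transport genes and 2 regulators. The share of all genes was 26.6%. With the authors' FPKM and a pseudocount of 0.1 there were 4, 1 in each role group, and with totals that leave out mitochondrial genes 1, the regulator *Insig2*. Of all genes 11.2% were past a 2-fold decrease with totals that leave out mitochondrial genes. The share with FPKM is not given here. At 1.5-fold there were 2, 1 of the mevalonate steps and 1 regulator, both lower in KO, against 19.4% of all genes lower. The medians moved with total counts to −0.59 for the mevalonate steps, −0.84 for the sterol steps, −0.77 for the regulators, −0.68 for the transport genes and −0.74 for all members, and with FPKM to −0.57, −0.83, −0.76, −0.56 and −0.73, because both scale by totals that hold the mitochondrial reads. The pseudocount draws low FPKM toward a ratio of 0, so *Soat1* stood at −0.54 with FPKM and −0.81 with total counts. *Srebf2* stood at −0.99 and −1.01, which is why FPKM gave 4 members and not 5. Of the 31 members, 12 changed sign with total counts and 12 with FPKM, 3 with totals that leave out mitochondrial genes, and 1 with a minimum of 1 count. Depth limited *Soat1* most.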

Other observations

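The gene lengths behind the authors' FPKM can be read from each gene's count, FPKM and library total. Over the members these lengths ran from 0.60 times the merged exons of GENCODE M21 for *Npc2* to 2.18 times for *Insig2*, and for *Lcat* they were the same. The ratio of KO over WT of a gene is not touched by this, but the order of levels between genes is. In the WT library the authors' FPKM place *Hmgcs1* (188) first, then *Sc5d* (155), *Lcat* (137) and *Ebp* (79.5), whereas merged exons place *Lcat* first and *Ebp* above *Sc5d*.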
